A study of Mus musculus with 20 samples.

Results

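Pparg, Cradd, Zcchc10, Clip4 and Tmcc2 are 5 of the 21949 genes in the deposited mRNA table, and they hold 11 of its 50660 transcripts. They were chosen by their FPKM at 10 months, which was lower in tau transgenic than in wild-type cortex. That difference is therefore described here without a test. FPKM (fragments per kilobase of transcript, corrected for library size) is a level per length, and a gene value is the sum over the transcripts of that gene. The libraries came from total RNA of mouse cerebral cortex on the strain (C57BL/6 x C3H)F1. Wild Type mice gave the groups WT03M (3 months) and WT10M (10 months), and mice with the transgene Tg(Prnp-MAPT*P301S)PS19Vle gave TG03M and TG10M at the same ages, with 5 libraries in each group. In this transgene the Prnp promoter drives human tau with the P301S mutation, which causes an inherited frontotemporal dementia. The labels number the replicates without saying that each came from a separate mouse, so p-values measure the spread between these libraries, which may be technical.

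The 5 genes belong to unrelated systems. Pparg encodes a nuclear receptor that pairs with retinoid X receptors and, when fatty acids or drugs of the glitazone class bind it, turns on genes of lipid uptake and storage. It is the master regulator of fat cell formation, and in brain it is present at low levels in neurons and glia. Cradd, also called RAIDD, is an adaptor with a caspase recruitment domain and a death domain that links PIDD1 to caspase-2 in a complex known as the PIDDosome, and its loss in humans disturbs cortical development. Zcchc10 is a little-studied protein with a CCHC zinc knuckle, a fold that often binds RNA. Clip4 has ankyrin repeats and CAP-Gly domains, the modules by which proteins such as CLIP-170 hold on to growing microtubule ends. Tmcc2 is a membrane protein of the endoplasmic reticulum with coiled coils, known for binding apolipoprotein E and the amyloid precursor protein.

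Several properties of the libraries bear on these values. Depth, read from the steps between low FPKM values, came to 22800000 to 30300000 fragments per library. Prnp, whose promoter is in the transgene, had 412 to 528 FPKM in the 10 wild-type libraries and 695 to 841 FPKM in the 10 transgenic ones, so the genotype labels were borne out in each library. WT10M replicate 5 and TG10M replicates 1 and 5 stood apart, with scores of 26.2 to 30.9 on a component that held 23.9% of the variance against -12.1 to 2.52 in the 17 others. These 3 libraries and TG03M replicates 2 to 5 had 13.9 to 20.5 FPKM of the chaperone gene Hsp90aa1, and the 13 others 532 to 687 FPKM. At 3 months the low values were all in transgenic libraries, so the 3-month genotype differences cannot be fully told apart from this split. Its cause was not tested. At 10 months the 6 excitatory neuron markers summed to 2040 to 2290 FPKM in WT10M and 2039 to 2224 FPKM in TG10M, which fits the labelled tissue. The 6 microglia markers summed to 180 to 268 FPKM in WT10M and 255 to 320 FPKM in TG10M. Of these markers 2 passed as higher in TG10M in limma with Benjamini-Hochberg adjustment, where 80 of all 13722 genes tested did (0.583%). The 5 astrocyte markers summed to 623 to 690 FPKM in WT10M and 683 to 814 FPKM in TG10M, and the 5 mural cell markers to 68.6 to 88.8 FPKM and 95.2 to 128 FPKM without overlap, and 1 of each passed as higher in TG10M in limma. The 6 striatal markers summed to 188 to 271 FPKM in WT10M and 85.5 to 202 FPKM in TG10M, and the 6 choroid plexus markers to 14.2 to 510 FPKM and 16.8 to 416 FPKM. None of the striatal or choroid markers was at 0 in every library. At 3 months the mural cell sums were 76.3 to 91.2 FPKM in WT03M and 92.5 to 100.5 FPKM in TG03M. The 5 oligodendrocyte markers summed to 1288 to 1439 FPKM in WT03M and 1496 to 1800 FPKM in TG03M. For the 6 inhibitory neuron markers the sums were 519 to 573 FPKM and 586 to 640 FPKM. These 3-month sums did not overlap, while those of the other marker lists did. The part of these markers in the differences of the 5 genes was not tested. In bulk tissue, fewer cells of a type and less RNA per cell cannot be told apart.

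At 10 months, limma with Benjamini-Hochberg adjustment over 13722 genes called 7 genes lower in TG10M (0.051% of those tested) at an adjusted p under 0.05. The 5 genes are among these 7 by choice, and the other two were the clock gene Per3 and the neuropeptide receptor gene Npy1r. On the scale of log2(FPKM + 0.5), used for every log2 difference below, TG10M minus WT10M was -0.59 for Pparg, -0.51 for Cradd, -0.50 for Zcchc10, -0.34 for Clip4 and -0.20 for Tmcc2. The corresponding values were -0.28 for Per3 and -0.26 for Npy1r. Just inside the threshold lay Tmcc2 at -0.20 and just outside it Trank1 and Qtrtd1, both at -0.27. The median difference of the 5 genes was -0.50, against 0.00 over all genes tested. Every TG10M library was below every WT10M library for 4 of the 5 genes, where 0.729% of all genes tested had that pattern, and nothing is read from this count because the same contrast chose the genes.

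**Figure D1:**
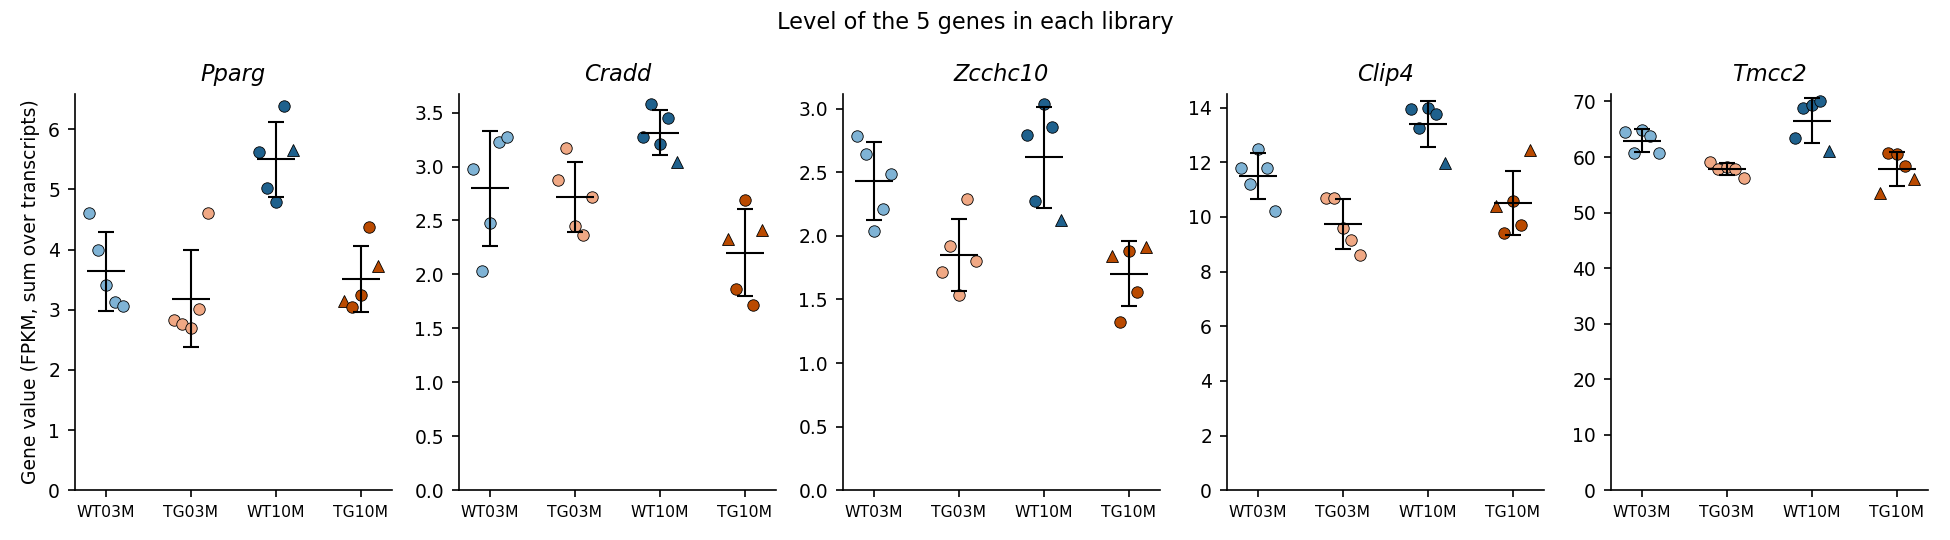
Gene value in FPKM (y axes from 0, a separate scale for each gene) in each of the 20 libraries, by group. Points are libraries, triangles mark WT10M replicate 5 and TG10M replicates 1 and 5, and bars are the mean and SD of 5 libraries. The TG10M points lie below the WT10M points for each gene but Clip4, where TG10M replicate 5 at 12.4 FPKM is above WT10M replicate 5 at 11.98 FPKM.

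Pparg (ENSMUSG00000000440) lies on GRCm38 at chr6:115360951-115490399 on the plus strand. The deposited table lists 5 of its transcripts, all annotated as protein coding in GENCODE M21. Pparg-202 starts at base 115360951, Pparg-204 at 115362292 and Pparg-206 at 115362349, while Pparg-207 starts at 115383699 and Pparg-201 at 115422066. Pparg-201, Pparg-202 and Pparg-204 run to the last exon. Pparg-206 and Pparg-207 are short models whose 3′ end is marked as incomplete in the annotation. Pparg-206 has 5 exons and 497 bases, of which 431 (86.7%) also lie in Pparg-204 and only 66 lie in no other listed transcript. The stretch that can set Pparg-206 apart from the other transcripts is therefore short. Pparg-204 has 57 bases of its own and Pparg-201 has 127.

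The bases before the starts of the full-length transcripts are shown to describe the gene. They come from RefSeq promoter windows on the GRCm38 assembly, which hold 3 windows for Pparg, and each is cut at the base before the annotated GENCODE start. The window of Pparg-204 also precedes Pparg-206, whose start lies within the first exon of Pparg-204. They are read on the plus strand at chr6:115360894-115360950 for Pparg-202, chr6:115362099-115362291 for Pparg-204 and chr6:115421816-115422065 for Pparg-201, with capitals for motif letters found by search.
Pparg-202: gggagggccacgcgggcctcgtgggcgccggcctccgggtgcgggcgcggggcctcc
Pparg-204: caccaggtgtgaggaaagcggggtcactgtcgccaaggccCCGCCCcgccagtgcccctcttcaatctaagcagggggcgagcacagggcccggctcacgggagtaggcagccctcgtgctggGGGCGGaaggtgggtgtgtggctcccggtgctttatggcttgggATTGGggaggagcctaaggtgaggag
Pparg-201: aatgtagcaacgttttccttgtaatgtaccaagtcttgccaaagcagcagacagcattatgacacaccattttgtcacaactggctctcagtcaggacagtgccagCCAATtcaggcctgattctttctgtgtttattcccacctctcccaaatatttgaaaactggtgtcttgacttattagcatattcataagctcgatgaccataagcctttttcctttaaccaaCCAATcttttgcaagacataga
Both strands were searched for the GC box GGGCGG, for the CCAAT box by its name, for the TATA box as TATAAA, for the E-box as CACGTG and for AGGTCA, the core of nuclear receptor sites. No matches overlap. The Pparg-204 window is 66.8% G and C and holds 2 GC boxes, 1 of them as CCGCCC, and 1 CCAAT box as ATTGG. Of 32851 promoter windows cut to the same 193 bases, 23.5% hold a GC box and 27.3% a CCAAT box. The Pparg-201 window is 40.8% G and C and holds 2 CCAAT boxes, and 33.8% of windows of its 250 bases hold at least 1. The Pparg-202 window of 57 bases is 87.7% G and C and holds none of these letters. These matches describe the sequence and say nothing about which factors bind.

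**Figure D2:**
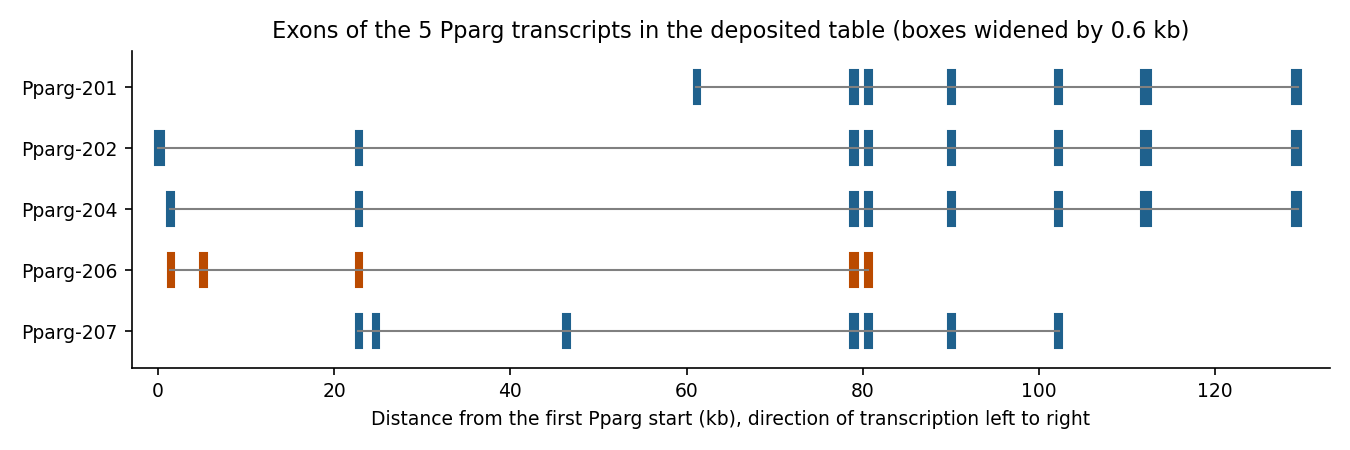
Exons (boxes) and introns (lines) of the 5 listed Pparg transcripts by distance in kb from the first Pparg start, transcribed from left to right. Boxes are widened by 0.6 kb to be visible, and Pparg-206, in orange, ends within the shared exons, far short of the last exon of Pparg-201, Pparg-202 and Pparg-204.

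As a gene, Pparg had 5.63, 5.03, 4.79, 6.39 and 5.65 FPKM in WT10M replicates 1 to 5. In TG10M it had 3.15, 3.05, 3.25, 4.37 and 3.73 FPKM. In WT03M it had 4.61, 3.98, 3.40, 3.13 and 3.06 FPKM, and in TG03M 2.82, 2.77, 2.70, 3.01 and 4.61 FPKM. The 10-month groups did not overlap, and WT10M also lay above every WT03M library. At 3 months TG03M replicate 5 nearly equalled the highest WT03M library and the other four TG03M libraries were below all of WT03M. The means were 5.498 ± 0.624 FPKM in WT10M and 3.51 ± 0.547 FPKM in TG10M (SD, n = 5). Ordered by mean, WT10M stood above WT03M, TG10M and TG03M, and those last 3 did not differ beyond their spread. The 3-month difference, which the choice of genes did not use, was -0.18 (95% interval -0.45 to 0.09) and did not pass (adjusted p = 0.668, limma with Benjamini-Hochberg adjustment).

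The lower Pparg value in TG10M was held mostly by the short model Pparg-206. Pparg-206 had 2.85, 2.66, 2.27, 2.46 and 1.78 FPKM in WT10M. In TG10M it had 0.00785, 0.511, 0.655, 1.77 and 0.575 FPKM. The lowest WT10M library and the highest TG10M library, replicate 4, were almost level, but the groups did not overlap. Of the 1.99 FPKM by which the Pparg mean was lower in TG10M, Pparg-206 held 1.70 FPKM, or 85.4%. It made up 31.5 to 52.9% of all Pparg FPKM in the WT10M libraries and 0.249 to 40.4% in the TG10M libraries.

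Without Pparg-206, the Pparg sum differed little between the genotypes at 10 months. It ranged from 2.37 to 3.93 FPKM in WT10M and from 2.53 to 3.15 FPKM in TG10M, and the groups overlapped. The log2 difference was then -0.10, and it was 0.04 for the sum of the 3 full-length transcripts. Pparg-202, the longest, had a mean of 1.38 ± 0.353 FPKM in WT10M and 1.15 ± 0.301 FPKM in TG10M. Pparg-204 had 1.09 ± 0.383 and 1.26 ± 0.337 FPKM, with the higher mean in TG10M. Pparg-201, from the start far downstream, was at most 0.000756 FPKM in the WT10M libraries and reached 0.331 FPKM in TG10M. Pparg-207, the other incomplete model, ranged from 0.00105 to 1.22 FPKM in WT10M and from close to 0 up to 0.804 FPKM in TG10M.

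FPKM divides by transcript length, so a fragment given to the short Pparg-206 adds more to the gene value than a fragment given to a full-length transcript. When each transcript was weighted by its length, the Pparg value was 2.64 to 3.57 FPKM in WT10M and 2.43 to 2.75 FPKM in TG10M, the groups overlapped, and the log2 difference was -0.21 in place of -0.59. This weighting was chosen after the values were seen. From FPKM, length and estimated depth, the Pparg-206 values stand for about 26.0 to 38.5 fragments in WT10M and 0.112 to 20.01 fragments in TG10M. The whole gene stood for a median of 142 fragments per library. These are estimates of how the authors' software shared fragments out, not counts of reads that map to Pparg-206 alone.

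**Figure D3:**
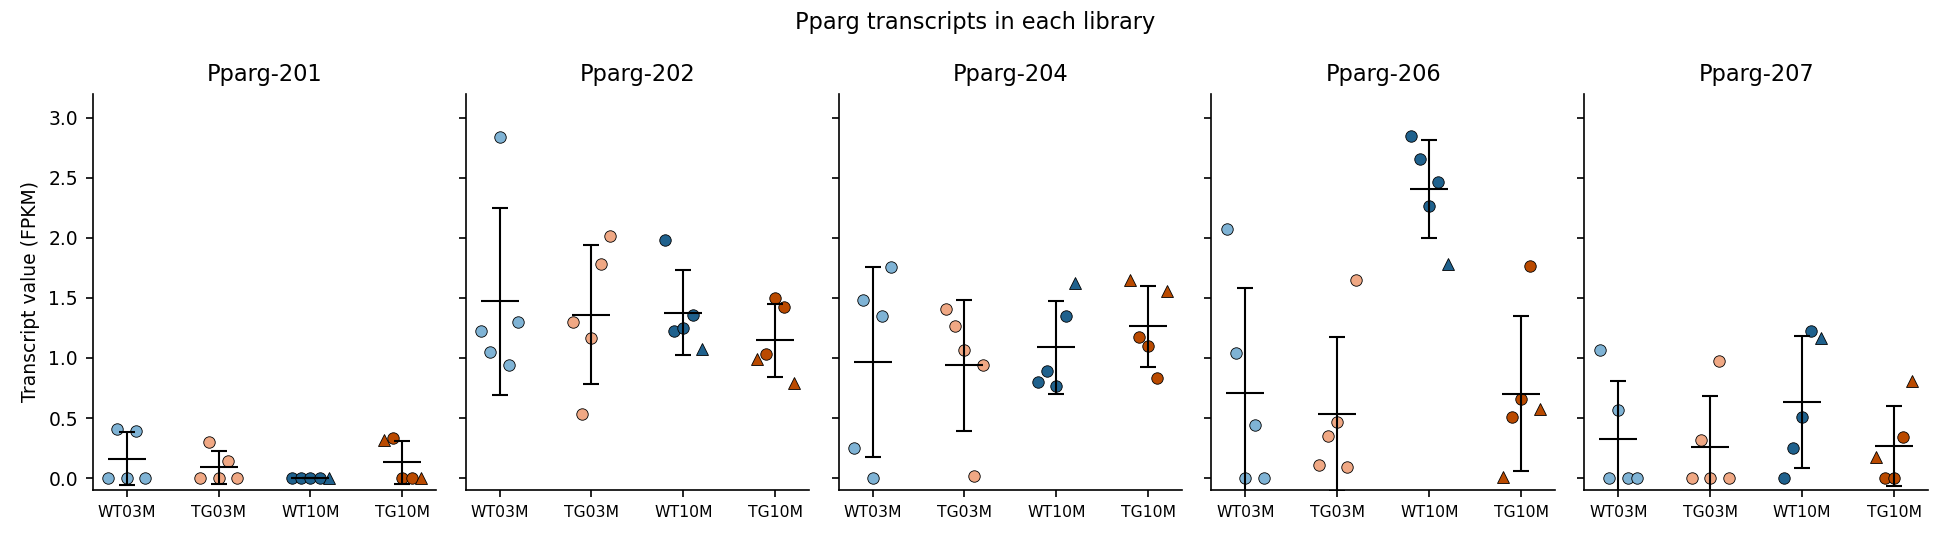
FPKM (1 y axis for the 5 panels) of each listed Pparg transcript in each library, by group, with triangles for WT10M replicate 5 and TG10M replicates 1 and 5 and bars for the mean and SD of 5 libraries. WT10M lies above TG10M with no overlap for Pparg-206, at 1.78 to 2.85 FPKM against 0.00785 to 1.77 FPKM, and the other four transcripts overlap.

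At 3 months Pparg-206 varied widely within each genotype. WT03M had 2.07 and 1.04 FPKM in replicates 1 and 2, 0.443 FPKM in replicate 4, and values close to 0 in replicates 3 and 5. TG03M had 0.112, 0.351, 0.470, 0.0947 and 1.65 FPKM. TG03M replicate 5, the library with the high Pparg value, was also the one with the high Pparg-206 value. Of 32296 transcripts tested at 3 months, limma called 20 (0.0619%), and none of the 10 tested transcripts of the 5 genes was among them. Pparg-206 differed by 0.09 on the scale of log2(FPKM + 0.1) used for single transcripts (SE 0.84, adjusted p = 0.989, limma with Benjamini-Hochberg adjustment). Pparg-201 was under the filter of 0.1 FPKM and was not tested.

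Cradd (ENSMUSG00000045867; chr10:95174746-95324133, minus strand) had the second largest difference, and it was seen at 10 months with almost none at 3 months. WT10M had 3.28, 3.58, 3.21, 3.45 and 3.05 FPKM. TG10M had 2.33, 1.86, 2.69, 1.72 and 2.41 FPKM. The groups did not overlap, and the WT10M libraries were the tightest group, with an SD of 0.209 FPKM around 3.31. At 3 months WT03M had 2.98, 2.03, 2.47, 3.23 and 3.27 FPKM. TG03M had 2.87, 3.17, 2.45, 2.37 and 2.71 FPKM, all inside the range of WT03M. The 3-month difference was -0.03 (95% interval -0.27 to 0.21, adjusted p = 0.959, limma with Benjamini-Hochberg adjustment). WT03M and TG03M did not differ beyond their spread, and the mean of WT10M lay above both and that of TG10M below both. Cradd is listed with a single transcript, Cradd-201, of 1661 bases in 3 exons, and its level stood for a median of 120 fragments per library.

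Zcchc10 (ENSMUSG00000018239; chr11:53324679-53333301, plus strand) had a lower mean in transgenic cortex at both ages, and the 3-month difference did not pass. WT10M had 2.79, 2.27, 3.03, 2.86 and 2.12 FPKM. TG10M had 1.84, 1.32, 1.88, 1.56 and 1.91 FPKM. The groups did not overlap, and WT10M replicate 5 was the lowest of its group. At 3 months WT03M had 2.78, 2.65, 2.04, 2.21 and 2.49 FPKM. TG03M had 1.72, 1.92, 1.53, 2.29 and 1.80 FPKM, and TG03M replicate 4 alone reached into the range of WT03M. The 3-month difference was -0.32 (95% interval -0.55 to -0.09, adjusted p = 0.265, limma with Benjamini-Hochberg adjustment). Its level was the lowest of the 5 genes per length and stood for a median of 68.6 fragments, so counting alone gives an error of about 12.1% per library. Within each genotype the ages did not differ beyond their spread.

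Clip4 (ENSMUSG00000024059; chr17:71768473-71864273, plus strand) overlapped between the genotypes at both ages. WT10M had 13.9, 13.3, 14.0, 13.8 and 11.98 FPKM. TG10M had 10.4, 9.41, 10.6, 9.71 and 12.4 FPKM. In each group 4 libraries were clear of the other group, and the overlap came from replicate 5 of both groups, 2 of the 3 libraries that stood apart. At 3 months WT03M had 11.8, 11.2, 12.5, 11.8 and 10.2 FPKM. TG03M had 10.7, 10.7, 9.58, 9.16 and 8.62 FPKM, and WT03M replicate 5 was the only wild-type library within the TG03M range. The 3-month difference was -0.23 (95% interval -0.39 to -0.07, adjusted p = 0.259, limma with Benjamini-Hochberg adjustment). The deposited table lists 1 Clip4 transcript (ENSMUST00000024854) of 2480 bases in 16 exons, where GENCODE M21 has 19, and the gene stood for a median of 696 fragments per library.

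Tmcc2 (ENSMUSG00000042066; chr1:132356315-132391281, minus strand) was the most abundant of the 5 genes per length and had the smallest difference. WT10M had 63.4, 68.8, 69.3, 70.1 and 61.1 FPKM. TG10M had 53.4, 60.7, 60.6, 58.4 and 56.1 FPKM. The groups did not overlap, but the highest TG10M library at 60.7 FPKM was just under the lowest WT10M library at 61.1 FPKM. At 3 months WT03M had 64.5, 60.8, 64.9, 63.8 and 60.8 FPKM. TG03M had 59.1, 57.9, 58.2, 57.8 and 56.3 FPKM, every library below every WT03M library. Of all genes tested 2.47% had that pattern at 3 months, and Tmcc2 was the only 1 of the 5 genes with it. The 3-month difference was -0.12 (95% interval -0.22 to -0.03, adjusted p = 0.337, limma with Benjamini-Hochberg adjustment). TG03M and TG10M had the same mean of 57.9 FPKM.

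Nearly all of the Tmcc2 level was the transcript ENSMUST00000045473, of 3410 bases. It had a mean of 61.6 ± 3.53 FPKM in WT10M and 53.2 ± 3.54 FPKM in TG10M, and 58.0 ± 2.05 and 53.7 ± 0.739 FPKM in WT03M and TG03M (SD, n = 5). A longer transcript, ENSMUST00000132435, had 4.79 ± 1.37 and 4.03 ± 0.706 FPKM in WT10M and TG10M. ENSMUST00000142609, which starts within the gene, was close to 0 in most libraries and reached 1.74 FPKM in TG10M replicate 5. With a median of 5243 fragments, counting error on Tmcc2 is about 1.38% per library, smaller than the spread within any group. For Tmcc2, unlike Pparg, weighting transcripts by length left the picture of the groups as it was, with 59.4 to 68.2 FPKM in WT10M and 51.8 to 59.0 FPKM in TG10M.

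At 3 months all 5 genes had a difference below 0, where 50.8% of all genes tested did, and none of the 5 passed. TG03M replicates 2 to 5 were low in Hsp90aa1 and no WT03M library was, so genotype and that split cannot be fully told apart here. The median over the 5 genes was -0.18, against 0.00 over all genes. In the same comparison 3 genes of 13722 were called lower (0.0219%) and 38 higher (0.277%). The 3-month values of Zcchc10, Clip4 and Tmcc2 were more than 0.5 of their 10-month values, while those of Pparg and Cradd were less. Subtracting the 3-month from the 10-month genotype difference gave -0.41 for Pparg, -0.48 for Cradd, -0.18 for Zcchc10, -0.11 for Clip4 and -0.08 for Tmcc2, given as values because the 10-month data chose the genes.

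**Figure D4:**
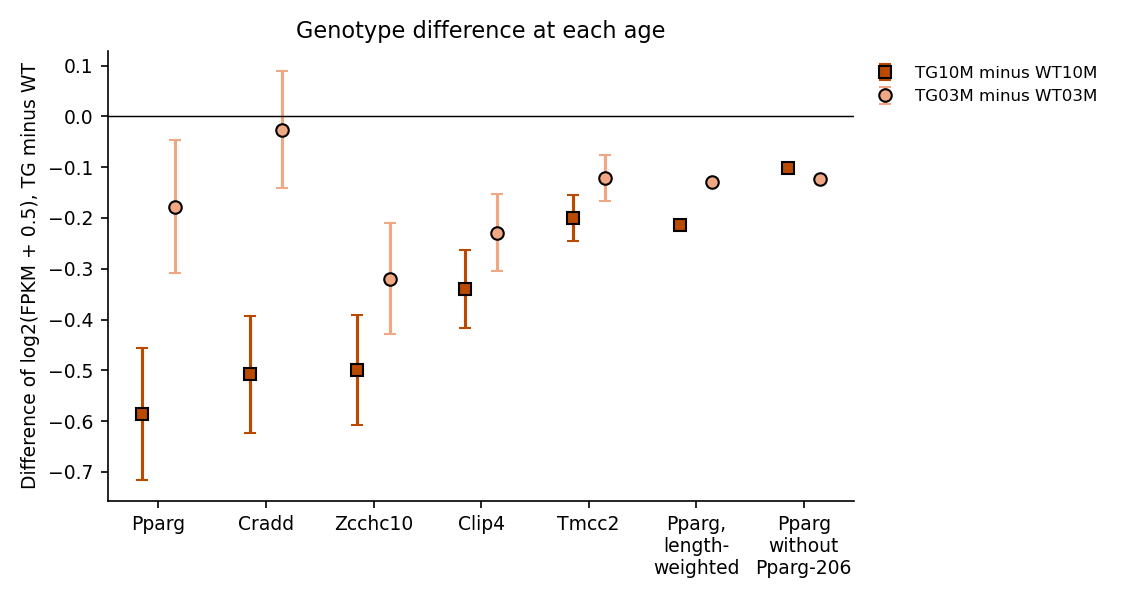
Difference of log2(FPKM + 0.5), transgenic minus wild type, for each gene at 10 months (squares) and 3 months (circles), with bars of 1 SE from limma. At the right, without error bars, are Pparg with transcripts weighted by length (-0.21 at 10 months) and Pparg without Pparg-206 (-0.10), against -0.59 for the plain sum.

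The differences with age are given as values only, since they share the WT10M and TG10M libraries with the choice of the genes. Choosing genes lower in TG10M than in WT10M favours high values of WT10M minus WT03M and low values of TG10M minus TG03M. No difference in ageing between the genotypes is therefore read from them. WT10M minus WT03M was 0.54 for Pparg, 0.22 for Cradd, 0.08 for Zcchc10, 0.21 for Clip4 and 0.08 for Tmcc2, above 0 in each case. TG10M minus TG03M was 0.14, -0.26, -0.10, 0.10 and -0.00 in the same order. The lower TG10M level of Pparg went with a higher WT10M level, and TG10M stood near the 3-month groups. For Cradd, TG10M was also below TG03M. For Pparg the increase with age in wild type lay in the same short model, since Pparg without Pparg-206 differed by 0.05 between WT10M and WT03M.

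The differences of 3 genes were smaller among the libraries that stood apart. Comparing TG10M replicates 1 and 5 with WT10M replicate 5 gave -0.14 for Zcchc10, against -0.64 in the 7 other 10-month libraries. For Clip4 the values were -0.07 and -0.46, and for Cradd -0.30 and -0.60. Pparg had -0.65 among the libraries that stood apart and -0.56 in the others, and Tmcc2 -0.16 and -0.18. These are values without a test, since a single wild-type library is in the set.

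Within the groups the 5 genes did not move together detectably. After the group means were removed, Pearson's r over the 20 libraries ranged from -0.25 for Pparg with Cradd to 0.35 for Cradd with Clip4. For Cradd with Clip4, Spearman's rho was 0.32 and r was 0.30 without the 2 libraries farthest from the median of Cradd. The same step took r to -0.45 for Pparg with Cradd (rho -0.28) and from 0.29 to 0.05 for Zcchc10 with Clip4 (rho 0.31). None of the 10 pairs passed (smallest adjusted p = 0.699, two-sided permutation test with 100000 permutations within groups, Benjamini-Hochberg adjustment over the pairs).

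For each of the 5 genes, the genes with the most similar pattern over the 20 libraries were found. These were chosen as the 3 highest Pearson correlations among 12763 genes of at least 1 FPKM, and they include the group differences, so they carry no p and cannot be set against the values within groups. For Pparg they were the splicing factor gene Rsrc1 (r 0.79), the centriole gene Rttn (0.73) and Ncoa2 (0.72), which encodes a coactivator of nuclear receptors. The Pparg value here, as in the correlations within groups, was the plain sum, whose 10-month difference lay mostly in Pparg-206. For Cradd they were Zbtb25 (0.89), Cxxc4 (0.85) and Zcchc11 (0.82), the last an RNA uridylyltransferase with zinc knuckles. For Zcchc10 they were Trip4 (0.83), Brpf3 (0.78) and Galnt13 (0.76). For Clip4 they were Csmd3 (0.88), Cwf19l2 (0.87) and Scube3 (0.85). For Tmcc2 they were the sodium channel subunit gene Scn2b (0.85), the mitochondrial ribosomal gene Mrps25 (0.84) and the glutamate receptor gene Gria1 (0.84). Over the 17 libraries without those that stood apart, the same 15 correlations ranged from 0.76 to 0.90.

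No gene of the pathway around Pparg passed. None of 18 genes for PPAR receptors, their retinoid X partners and coregulators passed at 10 months in limma with Benjamini-Hochberg adjustment, and 2 did at an unadjusted p under 0.05. Their median difference was -0.03. Rxrg, a retinoid X receptor, had the lowest value, -0.55 (SE 0.25, adjusted p = 0.332), with 10.4 ± 0.987 FPKM in WT10M and 7.17 ± 2.09 FPKM in TG10M. Ncoa2 was at -0.23 (adjusted p = 0.144, limma) and Ppargc1b, a coactivator of mitochondrial genes, at -0.23 (adjusted p = 0.486, limma). Of all 13722 genes tested, 80 passed as higher (0.583%) and 7 as lower, and 14.1% were at an unadjusted p under 0.05 at 10 months, against which the counts of each list are to be read.

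Most of the tested genes that PPARs are known to activate had values above 0, and none passed in limma. Of 26 listed, 22 were tested and 17 of these had a difference above 0, where 50.2% of all genes tested did, with a median of 0.06, and 4 were at an unadjusted p under 0.05. Cpt1a, which carries fatty acids into mitochondria, had 5.80 ± 0.387 FPKM in WT10M and 6.96 ± 0.358 FPKM in TG10M (0.25, adjusted p = 0.105, limma). The lipid droplet coat gene Plin2 differed by 0.21 and the cholesterol exporter gene Abca1 by 0.19, with adjusted p of 0.319 and 0.282 in limma. Fabp4, Adipoq, Cidec and Pck1 were under the filter, and the 5 fat cell markers Adipoq, Fabp4, Plin1, Cidec and Lep summed to no more than 0.540 FPKM in any 10-month library.

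Among 17 tested genes of the PIDDosome and death domain signalling, none passed at 10 months and 1 was at an unadjusted p under 0.05, with a median of 0.05. Casp2, the caspase that Cradd recruits, was at -0.15 (SE 0.08, adjusted p = 0.423, limma). The death receptor gene Fas had 0.919 ± 0.191 FPKM in WT10M and 1.36 ± 0.459 FPKM in TG10M (0.37, adjusted p = 0.320, limma). The signalling adaptor gene Bcl10 was at 0.20 (adjusted p = 0.373, limma). Pidd1, the partner of Cradd, was under the filter.

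Most CCHC zinc knuckle genes had a value below 0, and none passed. Of 19 tested, 17 had a difference below 0, where 49.8% of all genes did, and the median was -0.11. None passed in limma, and 2 were at an unadjusted p under 0.05. Zcchc7, part of a complex that marks RNA for decay, was at -0.26 (adjusted p = 0.397). Rbbp6, a ubiquitin ligase, was at -0.18 (adjusted p = 0.294, limma), and the uridylyltransferase gene Tut4, listed in the file under its older symbol Zcchc11, at -0.15 (adjusted p = 0.182, limma).

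The 20 CAP-Gly and microtubule plus end genes were split evenly, 10 above and 10 below 0, with a median of -0.00. None passed in limma and 3 were at an unadjusted p under 0.05. Cyld, a deubiquitinase with CAP-Gly domains, had 37.1 ± 4.49 FPKM in WT10M and 30.6 ± 2.93 FPKM in TG10M (-0.27, adjusted p = 0.145). Clasp1, which stabilises microtubule ends, was at -0.18 (adjusted p = 0.346, limma), and Slain1, which promotes their growth, at 0.23 (adjusted p = 0.1498, limma).

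Of all genes tested, 0.583% passed as higher and 0.051% as lower at 10 months. Among the 113 pathway genes tested, the only called gene was Apoe, which encodes the apolipoprotein that binds Tmcc2. It rose from 1964 ± 61.3 FPKM in WT10M to 2375 ± 148 FPKM in TG10M (SD, n = 5), by 0.27 (SE 0.06, adjusted p = 0.039, limma with Benjamini-Hochberg adjustment), and the ranges of 1913 to 2034 and 2222 to 2593 FPKM did not overlap. At 3 months it differed by 0.00. The Apoe call ended when any 1 of 9 of the 10-month libraries was left out, all but WT10M replicate 5, with adjusted p of 0.0519 to 0.129. The call also ended with no filter, with quantile normalization, with the compared groups alone and with the replicate number as a block (adjusted p = 0.0715 with the block, 0.120 to 0.154 with the others, limma). The summed microglia, astrocyte and mural cell markers also had higher medians in TG10M, with the ranges given above. So did those of oligodendrocytes, inhibitory neurons, thalamic neurons, endothelial cells, and fibroblasts and meninges. Medians were lower in TG10M for excitatory, striatal and hippocampal neurons, choroid plexus, blood cells and fat cells. The part of these markers in the Apoe value was not tested. The other genes of the list for the TMCC family, App, Apoe and the shaping of the endoplasmic reticulum did not pass, and the median of all 17 was -0.06, with 7 at an unadjusted p under 0.05, where 14.1% of all genes tested were. The reticulon genes Rtn1 and Rtn3 were at -0.40 (adjusted p = 0.290, limma) and -0.23 (adjusted p = 0.280, limma). At 3 months none of the 113 genes in the 6 lists passed in limma with Benjamini-Hochberg adjustment, and 12 were at an unadjusted p under 0.05, where 10.6% of all genes tested were.

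**Figure D5:**
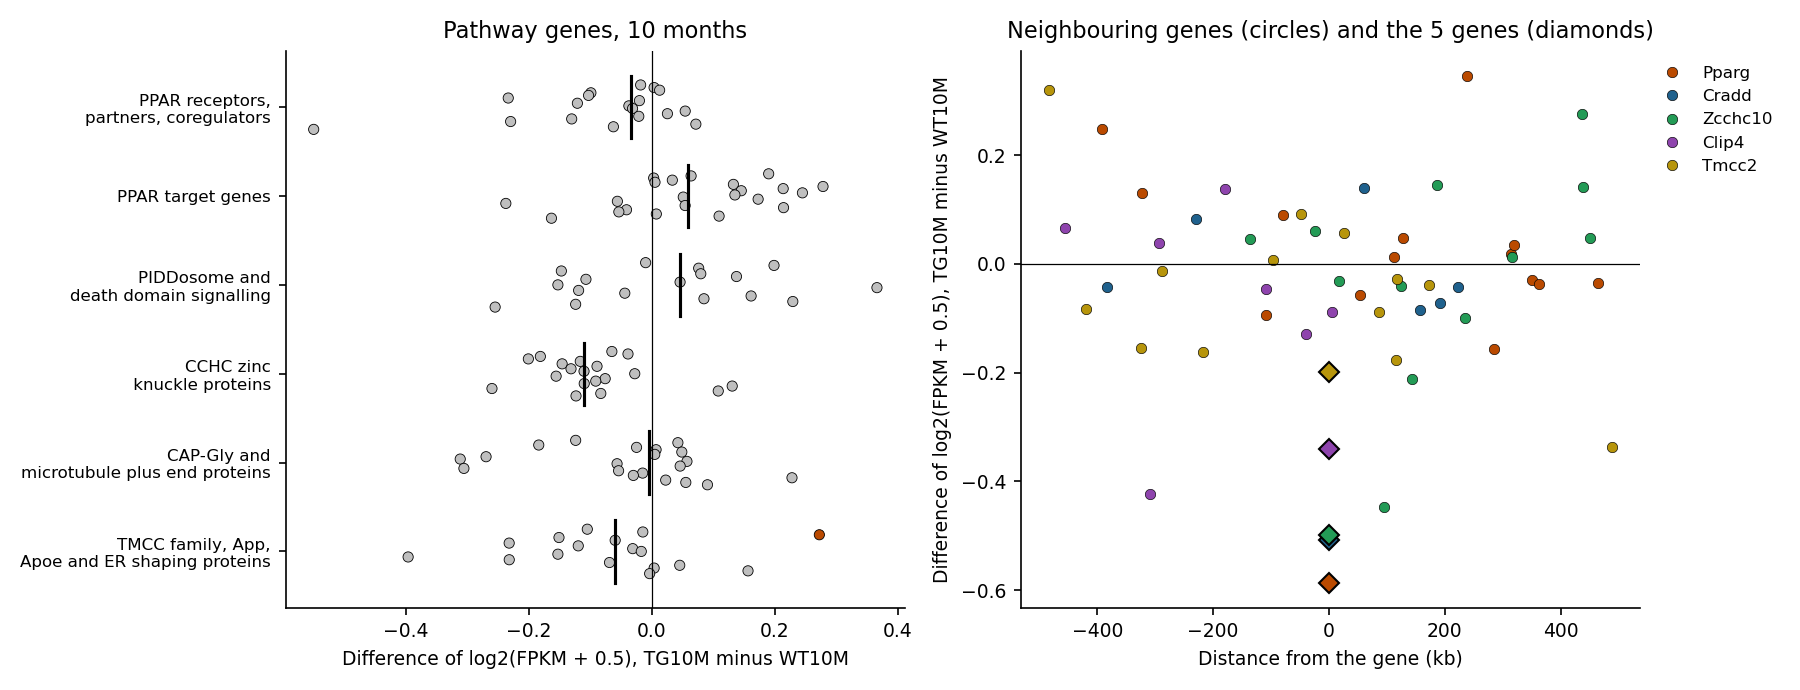
Left, difference of log2(FPKM + 0.5), TG10M minus WT10M, for each tested gene of the 6 lists, with a bar at the median and the called gene, Apoe at 0.27, in orange. Right, the same difference for the 52 tested genes within 500 kb (circles, x axis in kb from the gene, colour by gene) and for the 5 genes (diamonds at 0, where Cradd lies under Zcchc10).

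No tested gene near the 5 genes passed with them. Within 500 kb there were 52 tested genes, of which 0 passed at 10 months in limma (smallest adjusted p = 0.135), 6 were at an unadjusted p under 0.05, where 14.1% of all genes tested were, and 28 had a difference below 0. Beside Pparg, the synapsin gene Syn2 was at 0.09. Beside Cradd, Plxnc1 was at 0.08 and Socs2 at 0.14, and beside Zcchc10, Hspa4 was at 0.06 and Aff4 at -0.03. Alk, 4.70 kb from Clip4, was at -0.09 and Togaram2, on its other side, at -0.13. Beside Tmcc2, Klhdc8a was at 0.09 and Dstyk at 0.06. Annotated RNAs on the opposite strand overlap Pparg (Gm44079), Cradd (Gm48882) and Tmcc2 (Gm15849), and Gm48880 lies on the strand of Cradd within it. Their levels were not analysed here, and since the strand used in counting is not given in the sources used here, their reads cannot be told apart from those of the 3 genes.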

How the data were processed

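RNA of 20 cortex libraries, 5 in each of 4 groups, was measured as FPKM, deposited by the authors per transcript and already scaled to library size. CASAVA, TopHat2, Cuffdiff and the build GRCm38 (mm10) are named, without their roles, per the submitters' processing notes, and the labels' protocols keep RNA with an integrity number above a minimum. Overlapping transcripts share fragments, so values of single transcripts are estimates. FPKM were summed per gene. Genes with a mean of at least 0.5 FPKM entered limma 3.58.1 (R 4.3.3) on log2(FPKM + 0.5) with 1 mean per group, 16 residual degrees of freedom, a variance trend and two-sided Benjamini-Hochberg adjustment. Transcripts of at least 0.1 FPKM were tested on log2(FPKM + 0.1). The genotype tests of gene values were checked on simulated data with independent noise for each gene. Such data lack the component that set the 3 libraries apart, so the check does not cover its effect. The transcript tests and the permutation tests were not simulated.

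Depth was read as the size of 1 fragment from 42 to 64 low values per library over 1815 genes with 1 transcript longer than 4000 bases, of which 83.3 to 96.2% came within 0.1 of whole fragments. Fragment numbers quoted are FPKM times length times this depth, and counting error is the inverse square root. Lengths and positions are from GENCODE M21. The tables of unannotated transcripts were not used.

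The 5 genes, the 6 pathway lists and the marker lists were chosen with earlier results of these data known. Besides the 5 genes, the text names Per3 and Npy1r, the 2 named genes of at least 1 FPKM just outside the threshold, the 3 genes of each list with the smallest p at 10 months, the 3 most correlated genes of at least 1 FPKM, and the nearest tested gene on each side; a gene that this rule names is not reported here. Alternatives changed the pseudocount, filter, scaling, samples in the fit, weights, variance prior and replicate block, left out each library in turn or the 3 that stood apart, and weighted transcripts by length.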

Additional observations from a re-analysis of the deposited data

Results flagged for a closer look

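In 10 of 140 groups of 5 libraries checked, 1 library lay far from the other four, where chance gives about 1 in 20. Pparg had 4.61 FPKM in TG03M replicate 5 and 2.70 to 3.01 FPKM in the other TG03M libraries, and its transcript Pparg-206 had 1.65 FPKM there against 0.0947 to 0.470 FPKM. Pparg-202 had 2.84 FPKM in WT03M replicate 3 and 0.941 to 1.30 FPKM in the rest of that group. The Tmcc2 transcript ENSMUST00000142609 had 0.490 FPKM in WT03M replicate 4 and 0.670 FPKM in WT10M replicate 2, with the rest of both groups close to 0.

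WT10M replicate 5, one of the 3 libraries that stood apart, was low for 3 pathway genes. It had 147 FPKM of Rtn1 against 290 to 304 FPKM in the other WT10M libraries, 171 FPKM of Rtn3 against 241 to 248 FPKM, and 29.2 FPKM of Cyld against 37.3 to 40.0 FPKM. Without this library the differences at 10 months passed in limma with Benjamini-Hochberg adjustment for Rtn1 (-0.60, adjusted p = 0.0045), Rtn3 (-0.33, adjusted p = 0.0101) and Cyld (-0.35, adjusted p = 0.00471). These genes were flagged because this library was low, so leaving it out widens their differences by construction. The same fit called 824 of 13722 genes lower, so nothing particular to these genes is read from it. WT03M replicate 5 had 1904 FPKM of Apoe against 2051 to 2103 FPKM and 0.517 FPKM of Fas against 1.03 to 1.16 FPKM in the other WT03M libraries.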

How the results depend on the processing

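The 10-month differences of the 5 genes were below 0 in all 115 values computed under the alternatives for the gene value. Because the same contrast on the same libraries chose the genes, this sign is no independent support for a fall. Of these values 1, Pparg with transcripts weighted by length, moved by more than the spread between replicates, to -0.21. The sum of the 3 full-length Pparg transcripts, which leaves out Pparg-206 and Pparg-207, was above 0 (0.04). Leaving out 1 library at a time gave -0.66 to -0.53 for Pparg, -0.57 to -0.44 for Cradd, -0.56 to -0.43 for Zcchc10, -0.40 to -0.30 for Clip4 and -0.23 to -0.17 for Tmcc2. At 3 months none of the 5 genes passed under any alternative (lowest adjusted p = 0.0578, limma with Benjamini-Hochberg adjustment). The sign of Cradd at 3 months changed in 4 of the 10 fits that left out a library (-0.12 to 0.027), as did its transcript Cradd-201 (-0.13 to 0.032).

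Counts of calls depended on single libraries and on the fit. The 7 genes called lower at 10 months became 0 with the compared groups alone, 407 with array weights, 150 without the 3 libraries that stood apart and 824 without WT10M replicate 5, while leaving out any of the 9 other 10-month libraries left 0 to 2. The 1 pathway gene called at 10 months became 0 with no filter, with quantile normalization, with the compared groups alone and with the replicate block, 10 with array weights (6 lower), 8 without the 3 libraries (6 lower), 14 without WT10M replicate 5 (10 lower) and 0 without any of the 9 others. Neighbouring genes called went from 0 to 3 with array weights, 1 without the 3 libraries and 5 without WT10M replicate 5. At 3 months pathway genes called went from 0 to 2 with the compared groups alone, 2 with array weights and 4 without the 3 libraries. All genes called at 3 months went from 41 to 22 with no filter, 221 with the compared groups alone, 261 with array weights, 473 without the 3 libraries, and 11 to 108 when 1 library was left out, the highest without TG03M replicate 1. The counts among 113 pathway genes and 52 neighbouring genes are to be read against those over all genes in the same fit. In the main fit 13722 genes were tested, and at 10 months the counts over all genes are of lower calls only. No pathway or neighbourhood result is read from these changes, and their cause was not tested.

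Among values that did not pass, the sign changed for Aff4 without the 3 libraries (0.034) and when 1 library was left out (-0.080 to 0.018), for Pparg-206 at 3 months with a pseudocount of 1 (-0.10), and for the correlation of Zcchc10 with Clip4 without the 3 libraries (-0.0034). With 1 library left out, the 3-month differences spanned -0.27 to 0.16 for Pparg-202, -0.49 to 0.88 for Pparg-204, -0.43 to 0.68 for Pparg-206 and -0.74 to 0.41 for Pparg-207.

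Not every same-numbered pair correlated above 0.1, so replicate numbers were not taken to pair the libraries. Same-numbered deviations correlated from -0.17 to 0.66 between WT10M and TG10M and from -0.42 to 0.10 between WT03M and TG03M. With the number as a replicate block, 5 genes were called lower at 10 months and 44 called at 3 months, no call on the 5 genes at 3 months changed, and at 10 months the calls of Apoe (adjusted p = 0.0715, limma) and Per3 (adjusted p = 0.0677, limma) ended. Own numbers correlated best for 3 of 5 pairs at 10 months and 1 of 5 at 3 months.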
